A study of Strongylocentrotus purpuratus with 4 samples.

Results

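A single cell library of uninjected Strongylocentrotus purpuratus gastrulae that had been enriched for ectoderm was compared with a library made from whole gastrulae injected with a control morpholino. Both were collected at 48 hours post fertilization (hpf). The comparison asked how the summed transcripts, and the shares of cells that carried the markers of each tissue, differed between the preparations. It rests on the cells with 400 to 2500 detected genes, of which there were 5170 in the uninjected library and 3323 in the control morpholino library, or 8493 of the 15698 such cells in the whole series of 4 libraries.

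Eggs were fertilized in 3-amino-triazole (3-AT). The uninjected 48 hpf embryos received no morpholino and were exposed only briefly to hyalin extraction medium, a calcium-free buffer that loosens the outer layers. Their ectoderm was sheared off and separated from the rest of the embryo on a mesh. This enrichment is described in the methods of the study and is not part of the sample labels. The control MO embryos carried a morpholino, an antisense oligonucleotide, designed against the foxy3 gene of the sea star Patiria miniata, chosen as irrelevant to S. purpuratus. Their eggs had been dejelled in acidified sea water and injected, and the embryos were taken apart completely after longer exposure to the extraction medium, so that inner tissues were included. Enrichment, dejelling, injection and the morpholino therefore differed together, and their contributions cannot be told apart. The other libraries, uninjected ectoderm-enriched larvae at 72 hpf and whole gastrulae injected with a gcm morpholino at 48 hpf, differed by preparation and injection in the same way, but also by stage and by gcm, the regulator that sets up pigment cells. Their values are given beside those of the main pair as description. Each uninjected library was sequenced in a lane of its own, and the 2 injected libraries shared a lane. Each group was 1 library made from many pooled embryos, so there was no replicate check and no test between groups could be made. All intervals given are 95% intervals that cover counting error only.

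The sea urchin gastrula consists of a thin ectodermal wall that surrounds a fluid-filled cavity and a tubular gut. The ectoderm is divided into aboral and oral territories by a ciliary band, with an apical plate that gives rise to neurons. Skeletogenic mesenchyme cells lie in the cavity and secrete a calcium carbonate endoskeleton, whereas pigment cells, although mesodermal in origin, insert into the ectoderm and are retained when that layer is peeled away.

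The kept cells held 15379620 unique molecular identifiers (UMIs, each a counted RNA molecule) in the uninjected 48 hpf library and 9314829 in the control MO library, against 14602157 in the uninjected 72 hpf library and 1822536 in the gcm MO library. Cells had a median of 3063.5 UMIs and 1155 genes in the uninjected 48 hpf library, and of 2684 UMIs and 1145 genes in the control MO library. The uninjected library contained 959 cells under 1000 UMIs, against 134 in the control MO library. Only 8 barcodes were shared by the pair. The 20 most abundant genes took 18.1% of the UMIs of the uninjected library and 14.7% of those of the control MO library.

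Levels are given as UMIs of the gene per 1000000 UMIs of the library (CPM). A gene with no UMI could have been at up to 0.195 CPM in the uninjected 48 hpf library and 0.322 CPM in the control MO library, from 3 counts. Of 23305 genes with a UMI in either library, 7798 had at least 200 in both together. Among them, 628 genes (8.05%) were at least 2-fold higher in the uninjected library and 807 (10.3%) were at least 2-fold lower. The interval of every one of these ratios lay off 1, which the minimum of 200 UMIs and the 2-fold rule already ensured. With each cell scaled to its own total there were 842 higher and 753 lower genes, so which direction had more depended on the scaling. The intervals lay wholly beyond 2-fold for 327 higher and 522 lower genes. The extremes were mostly on the lower side, with 76 genes at least 5-fold lower and 23 at least 10-fold lower in the uninjected library, against 30 and 4 genes higher by those folds. The median log2 ratio over all 7798 genes was -0.05. In summed counts, fewer cells of a type and less RNA per cell cannot be told apart, so shares of cells are given beside the levels where possible.

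**Figure D1:**
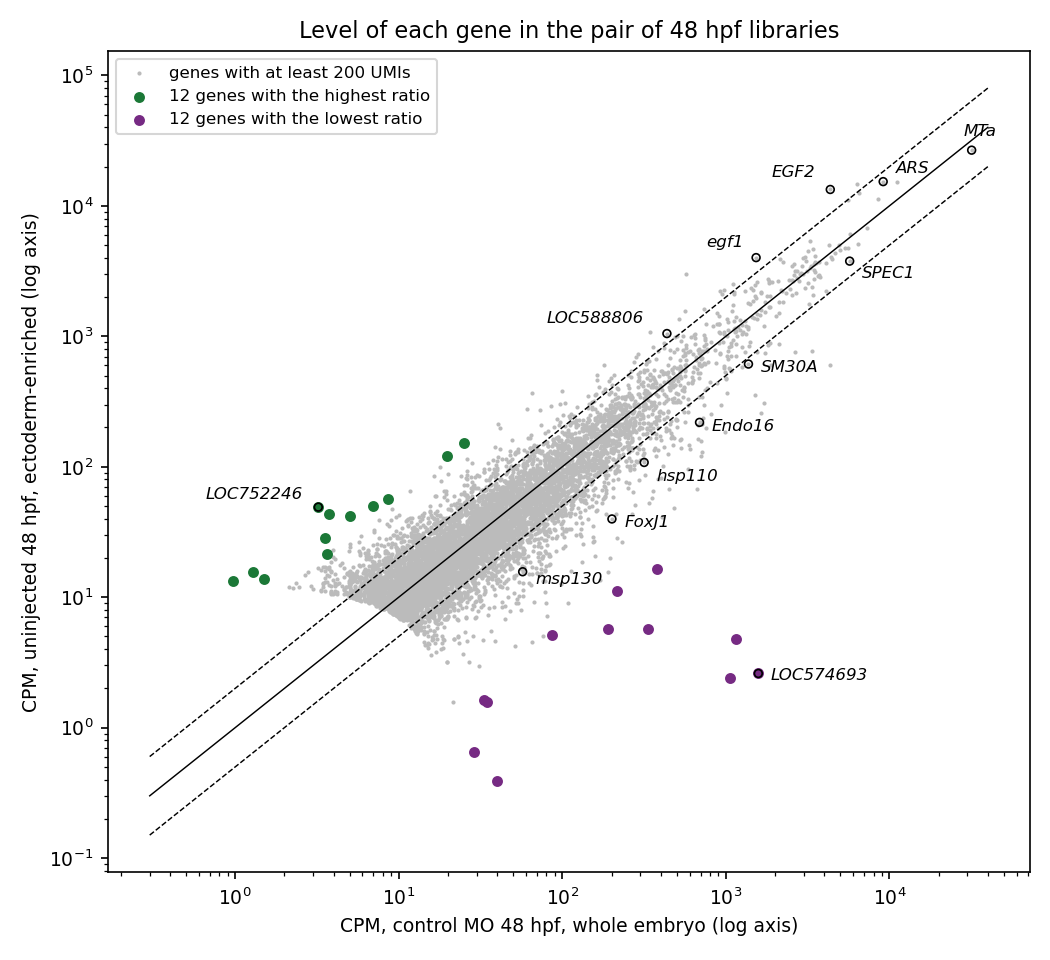
Level of each of the 7798 genes with at least 200 UMIs, in CPM on log axes, in the uninjected 48 hpf library (vertical) against the control MO library (horizontal); each point is 1 gene, the solid line marks equal levels and the dashed lines a 2-fold difference. Most genes lie between the dashed lines, and the lowest ratios stand further from equality than the highest, with LOC574693 at 2.60 CPM in the uninjected library and 1580 CPM in the control MO library.

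Genes of the aboral ectoderm, which makes the larval epidermis, differed by unequal amounts and in both directions. EGF2, which encodes a secreted protein with epidermal growth factor repeats, was at 13360 CPM in the uninjected 48 hpf library and 4351 CPM in the control MO library, a ratio of 3.07 (3.04 to 3.104). It was detected in 98.9% of uninjected cells and 89.7% of control MO cells. egf1, the gene of a fibropellin of the apical extracellular lamina, was at 4013 CPM in the uninjected library and 1531 CPM in the control MO library, a ratio of 2.62 (2.58 to 2.67). These were the 2 of 12 measured aboral genes past 2-fold, and none was 2-fold lower. Over all genes, 8.05% were 2-fold higher and 10.3% lower.

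The genes most often used to mark the territory differed less. The arylsulfatase gene ARS was at 15347 CPM in the uninjected 48 hpf library and 9163 CPM in the control MO library, a ratio of 1.67 (1.66 to 1.69). SPEC1, a calcium-binding protein of the troponin C family, went the other way, with 3771 CPM in the uninjected library and 5717 CPM in the control MO library, a ratio of 0.660 (0.652 to 0.668). Its relatives were split, with spec2d at 263 CPM in the uninjected library and 163 CPM in the control MO library, and spec2c at 347 CPM (uninjected) and 384 CPM (control MO). The homeodomain genes Hbox7, Dlx and IrxA had ratios of 1.99, 1.49 and 1.35, and the T-box gene Tbx2/3, a regulator of aboral identity, 1.26. NK2.2 was at 0.860 and the syndecan gene Sdc, a cell surface proteoglycan, at 0.885. The median log2 ratio of the 12 genes was 0.50, beside -0.05 over all genes. Without EGF2, egf1, Hbox7, Dlx and IrxA, 7 genes remained, with a median of -0.14 and none past 2-fold. The balance thus depended on which genes were counted. The actin gene cyiiib was listed but had no UMI in any library.

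The 8 aboral markers used to count cells (ARS, SPEC1, spec2c, spec2d, cyiiib, Tbx2/3, NK2.2 and Sdc) summed to 24021 CPM in the uninjected 48 hpf library and 20232 CPM in the control MO library, a ratio of 1.19. The share of cells with at least 3 of their UMIs, after each cell was thinned to 500 UMIs, was 71.0% (69.7 to 72.2) in the uninjected library and 68.4% (66.8 to 70.01) in the control MO library, a ratio of 1.04 (0.984 to 1.09). The summed ratio moved to 1.01 when each cell was scaled to its own total. The interval of the ratio of shares treats counts of cells as rates, which makes it too wide for shares this large. Without thinning that ratio was 0.994. The share of cells carrying these markers thus differed little, and whether by more than counting error was not tested. It is not the share of aboral ectoderm cells, since the markers were also found in cells of other kinds, and the syndecan gene Sdc alone had a UMI in 72.4% of uninjected and 78.7% of control MO cells after thinning.

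The oral ectoderm and ciliary band genes gave no common direction, with 1 of 10 higher and 1 lower past 2-fold and a median log2 ratio of 0.16. Both counts were near the 8.05% higher and 10.3% lower over all genes. The higher gene was Nk1, a homeodomain regulator of the oral side, at 15.9 CPM in the uninjected 48 hpf library and 6.33 CPM in the control MO library, a ratio of 2.50 (1.88 to 3.39). Lim1 (1.89), Gsc (1.77) and the ciliary band regulator hnf6 (1.58) leaned to the uninjected library. The ligand gene BMP2/4, its antagonist CHRD, otx and HMX had ratios between 1.07 and 1.12, and FoxG, a ciliary band factor, was at 0.594.

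The exception was FoxJ1, the regulator of motile cilium genes. It was at 39.8 CPM in the uninjected 48 hpf library and 201 CPM in the control MO library, a ratio of 0.198 (0.180 to 0.217), and was detected in 10.3% of uninjected cells and 35.2% of control MO cells. The other libraries had 48.2 CPM (uninjected 72 hpf) and 45.5 CPM (gcm MO), so the control MO library alone stood apart. In cells without gut, skeleton or pigment markers the ratio was 0.184, close to that over all cells. KATNA1, the catalytic subunit of the microtubule-severing enzyme katanin, was lower as well, at 27.6 CPM in the uninjected library and 60.7 CPM in the control MO library. The kinesin-2 subunit genes KRP85, KRP95 and kap115 had ratios of 1.11, 0.929 and 0.702 and pkd2, a calcium channel gene, 1.42. Of the 6 genes on the kinesin and cilia list 2 were lower and none was higher, beside 10.3% lower and 8.05% higher over all genes.

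The apical plate was represented by few markers, and all of them were higher in the uninjected library. foxq2, the forkhead gene of the apical plate, was at 62.1 CPM in the uninjected 48 hpf library and 25.01 CPM in the control MO library, a ratio of 2.48 (2.15 to 2.88). Over all genes, 8.05% were 2-fold higher. NK2.1 (1.48) and the Notch ligand gene delta (1.203) did not reach 2-fold. After thinning, 47 uninjected cells (0.909%) and 8 control MO cells (0.241%) carried at least 3 UMIs of these genes, a ratio of 3.78 (1.77 to 9.25). Before thinning the shares were closer, at 424 uninjected cells (8.20%) and 176 control MO cells (5.30%). The apical markers were not part of the alternatives for processing, so the size of this ratio is uncertain. At 72 hpf foxq2 was at 2.05 CPM, and it was at 17.0 CPM in the gcm MO library.

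The homeodomain gene eve, the even-skipped ortholog, was not on a list and was chosen after its values were seen. It was at 65.4 CPM in the uninjected 48 hpf library and 11.7 CPM in the control MO library, a ratio of 5.58 (4.58 to 6.87), with 40.5 CPM in the uninjected 72 hpf library and 39.5 CPM in the gcm MO library. It was detected in 11.8% of uninjected 48 hpf cells and 2.95% of control MO cells. Here too the control MO library was the one that differed from the other 3.

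Genes of the gut, which the enrichment was meant to leave behind, were mostly lower in the uninjected library. Of 4 measured genes, 3 were past 2-fold, beside 10.3% lower over all genes. Endo16, a secreted protein of the midgut, was at 219 CPM in the uninjected 48 hpf library and 690 CPM in the control MO library, a ratio of 0.317 (0.304 to 0.331). It was at 18.7 CPM in the uninjected 72 hpf library and 1217 CPM in the gcm MO library. Both ectoderm-enriched libraries thus lay below both whole embryo libraries, as for 2925 of the 7798 genes compared. The endodermal regulator GATAe was at 33.5 CPM in the uninjected 48 hpf library and 89.1 CPM in the control MO library (ratio 0.376), and blimp1/krox, a regulator of early endoderm, was at 48.6 CPM (uninjected) and 103 CPM (control MO), a ratio of 0.474.

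FoxA, which is also expressed in the oral ectoderm around the future mouth, was instead at 353 CPM in the uninjected 48 hpf library and 261 CPM in the control MO library, a ratio of 1.35 (1.29 to 1.42). Among cells without skeleton, gut or pigment markers, 9.62% of uninjected cells and 6.95% of control MO cells had a FoxA UMI after thinning. The gut markers used there included FoxA, so cells with at least 3 FoxA UMIs had already been left out. These shares are therefore cut short by the gene itself. Because FoxA is also expressed outside the gut, and after the values were seen, the gut markers were also counted without FoxA and lox.

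Cells carrying at least 3 UMIs of Endo16, GATAe and blimp1/krox after thinning numbered 74 (1.43%, 1.13 to 1.79) in the uninjected 48 hpf library and 169 (5.09%, 4.36 to 5.89) in the control MO library, a ratio of 0.281 (0.211 to 0.372). The share was 0.195% in the uninjected 72 hpf library and 9.65% in the gcm MO library. With FoxA and lox included, the shares at 48 hpf were 2.92% (uninjected) and 6.41% (control MO), a ratio of 0.456. Before thinning, the 3 genes gave shares of 2.90% (uninjected) and 9.81% (control MO). Within the cells that carried gut markers, GATAe was at 846 CPM in the uninjected library and 652 CPM in the control MO library and Endo16 at 7020 CPM (uninjected) and 6773 CPM (control MO). These genes chose the cells, so those levels are a description. Gut cells were thus scarcer in the ectoderm-enriched library but not absent from it.

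**Figure D2:**
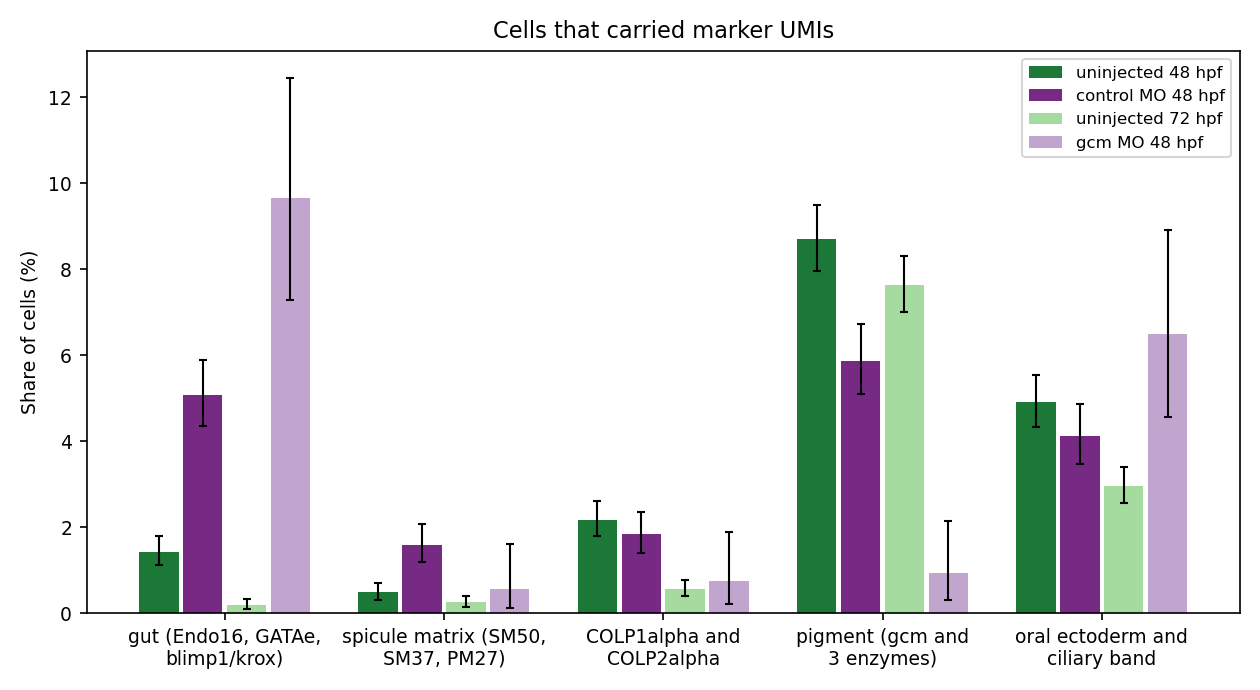
Share of cells, in percent, that carried the markers of each tissue in the 4 libraries, with exact binomial 95% intervals as bars; gut, pigment and oral or ciliary markers are counted after thinning to 500 UMIs (at least 3 UMIs), spicule matrix (at least 3 UMIs) and collagen genes (at least 5 UMIs) without thinning. Between the 48 hpf libraries smaller shares of uninjected than of control MO cells carry gut markers (1.43% uninjected, 5.09% control MO) and spicule matrix genes (0.484% uninjected, 1.60% control MO), and a larger share carries pigment markers (8.70% uninjected, 5.87% control MO).

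The skeletogenic markers did not move as one group. Of 10 measured genes, 4 were 2-fold lower in the uninjected library, none was higher, and the median log2 ratio was -0.42. Over all genes, 10.3% were 2-fold lower and 8.05% higher. SM30A, a matrix protein of the spicule, was at 613 CPM in the uninjected 48 hpf library and 1375 CPM in the control MO library, a ratio of 0.446 (0.434 to 0.458). msp130, a cell surface glycoprotein of mineralizing cells, was at 15.7 CPM in the uninjected library and 57.2 CPM in the control MO library (ratio 0.274), and SpP19L was at 80.6 CPM (uninjected) and 220 CPM (control MO), a ratio of 0.366. Alx1, the transcription factor that specifies skeletogenic cells, was at 8.19 CPM in the uninjected library and 17.0 CPM in the control MO library, and its interval of 0.379 to 0.614 included 0.5.

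Other genes on the skeleton list hardly differed, except SFK1, with a ratio of 0.631 (0.585 to 0.681). The spicule matrix genes SM50 (0.921), SM37 (1.15) and PM27 (0.884) were near equality, but in the uninjected library 59.3% to 63.3% of the UMIs of each lay in 10 cells, against 33.3% to 37.0% in the control MO library. So were the fibrillar collagen genes, with COLP1alpha at 292 CPM in the uninjected library and 290 CPM in the control MO library (ratio 1.01) and COLP2alpha at 0.982.

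The spicule matrix and fibrillar collagen genes were carried by 2 kinds of cells, which were separated after the values were seen. Cells with at least 3 UMIs of SM50, SM37 and PM27 numbered 25 (0.484%, 0.313 to 0.713) in the uninjected 48 hpf library and 53 (1.60%, 1.197 to 2.08) in the control MO library, a ratio of 0.303 (0.181 to 0.497). Cells with at least 5 UMIs of COLP1alpha and COLP2alpha numbered 112 (2.17%) in the uninjected library and 61 (1.84%) in the control MO library, a ratio of 1.18 (0.856 to 1.64). Only 1 cell of each library belonged to both kinds. The spicule cells were deeper in the uninjected library (median 4412 UMIs, against 3058 in the control MO library), and the collagen cells were shallower (median 1692.5 UMIs, against 2675 in the control MO library).

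The spicule cells held 93.1% of the SM30A UMIs of the uninjected 48 hpf library and 93.0% of those of the control MO library. Within them, SM30A was at 83821 CPM in the uninjected library and 72530 CPM in the control MO library (1.16), Alx1 at 889 CPM (uninjected) and 859 CPM (control MO), a ratio of 1.03, SpP19L at 9995 CPM (uninjected) and 11310 CPM (control MO), a ratio of 0.884 and msp130 at 2074 CPM (uninjected) and 2850 CPM (control MO), a ratio of 0.728. For these genes, which did not choose the cells, the difference within spicule cells was therefore under 2-fold. SM50, SM37 and PM27, which chose the cells, were at 7406, 7740 and 9269 CPM in the 25 uninjected cells and at 3070, 2436 and 3867 CPM in the 53 control MO cells.

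The collagen cells had another make-up. No UMI of Alx1 was found in the 112 collagen cells of the uninjected 48 hpf library or the 61 of the control MO library. From 3 counts, this allows a UMI in up to 2.68% of such uninjected cells and 4.92% of such control MO cells, and sets no limit on expression below detection. Among spicule cells, 76% of the uninjected and 88.7% of the control MO cells had one. The gene of the matrix glycoprotein SPARC was detected in 89.3% of the uninjected and 98.4% of the control MO collagen cells, against 44.8% of all other uninjected cells and 45.5% of all other control MO cells. The lysyl oxidase gene LOXL2, an enzyme that crosslinks collagen, was found in 27.7% of uninjected and 50.8% of control MO collagen cells, and in 0.0989% of uninjected and 0.215% of control MO cells of other kinds. erg, an ETS factor of mesodermal cells, was found in 45.5% of uninjected and 54.1% of control MO collagen cells, and in 1.25% of uninjected and 1.99% of control MO cells of other kinds. The share of collagen cells differed between the libraries by less than counting error.

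COLP3alpha and COLP4alpha were lower in the uninjected library. COLP3alpha was at 161 CPM in the uninjected 48 hpf library and 523 CPM in the control MO library, a ratio of 0.308 (0.293 to 0.323), and COLP4alpha at 74.4 CPM (uninjected) and 149 CPM (control MO), a ratio of 0.499. Spicule cells held 61.2% of the COLP3alpha UMIs of the uninjected library and 68.0% of those of the control MO library. Within spicule cells COLP3alpha was at 14467 CPM in the uninjected library and 20153 CPM in the control MO library, and within collagen cells at 2281 CPM (uninjected) and 6706 CPM (control MO). These were the 2 of 7 measured extracellular matrix genes past 2-fold, beside 10.3% lower over all genes.

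Of the coelomic pouch and other mesodermal genes, 1 of 4 measured was 2-fold lower, beside 10.3% over all genes. It was GATAc, a transcription factor of nonskeletogenic mesoderm. GATAc was at 3.77 CPM in the uninjected 48 hpf library and 17.0 CPM in the control MO library, a ratio of 0.222 (0.162 to 0.302). Few cells carried it, and its 10 highest cells held 53.45% of 58 UMIs (uninjected) and 66.5% of 158 UMIs (control MO). Spicule cells held 20.7% of its UMIs in the uninjected library, against 73.4% in the control MO library, and without skeleton, gut and pigment cells its ratio was 0.734. The germline helicase gene vasa (0.875) and erg (0.835) differed by less. Cells carrying these markers were rare in both libraries, at 0.135% of uninjected and 0.181% of control MO cells.

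Pigment cells were more frequent in the ectoderm-enriched library. Cells with at least 3 UMIs of gcm, LOC588806 (the polyketide synthase gene pks1), LOC592500 (sult1c2, a sulfotransferase) and LOC588371 (fmo5-1, a flavin monooxygenase) after thinning made up 450 uninjected 48 hpf cells (8.70%, 7.95 to 9.51) and 195 control MO cells (5.87%, 5.09 to 6.72), a ratio of 1.48 (1.25 to 1.76). Their summed level was 1895 CPM in the uninjected library and 1274 CPM in the control MO library, a ratio of 1.49 (1.46 to 1.52). The genes did not share that ratio. LOC588806 was at 1050 CPM in the uninjected library and 436 CPM in the control MO library, a ratio of 2.41 (2.33 to 2.49), and was the 1 gene of 4 past 2-fold. Over all genes, 8.05% were 2-fold higher. gcm was at 37.9 CPM (uninjected) and 27.6 CPM (control MO), a ratio of 1.37, while LOC592500 at 769 CPM (uninjected) and 772 CPM (control MO), a ratio of 0.996 and LOC588371 (1.00) were level.

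Within the pigment cells, LOC588806 was at 15149 CPM in the uninjected 48 hpf library and 8869 CPM in the control MO library (1.71), whereas LOC592500 was at 10855 CPM (uninjected) and 16137 CPM (control MO), a ratio of 0.673. The sulfotransferase therefore had a lower level per pigment cell UMI in the uninjected library, beside a larger share of pigment cells. These genes chose the cells, and the values are given as a description. LOC588806 was also found outside pigment cells. After thinning it had a UMI in 10.8% of gut cells in the uninjected library and 1.198% in the control MO library, and in 6.75% (uninjected) and 2.17% (control MO) of the cells with no gut, skeleton or pigment markers. The gut cells had medians of 5055.5 UMIs in the uninjected library and 3790 UMIs in the control MO library. The part of this background in the share of pigment cells was not tested.

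**Figure D3:**
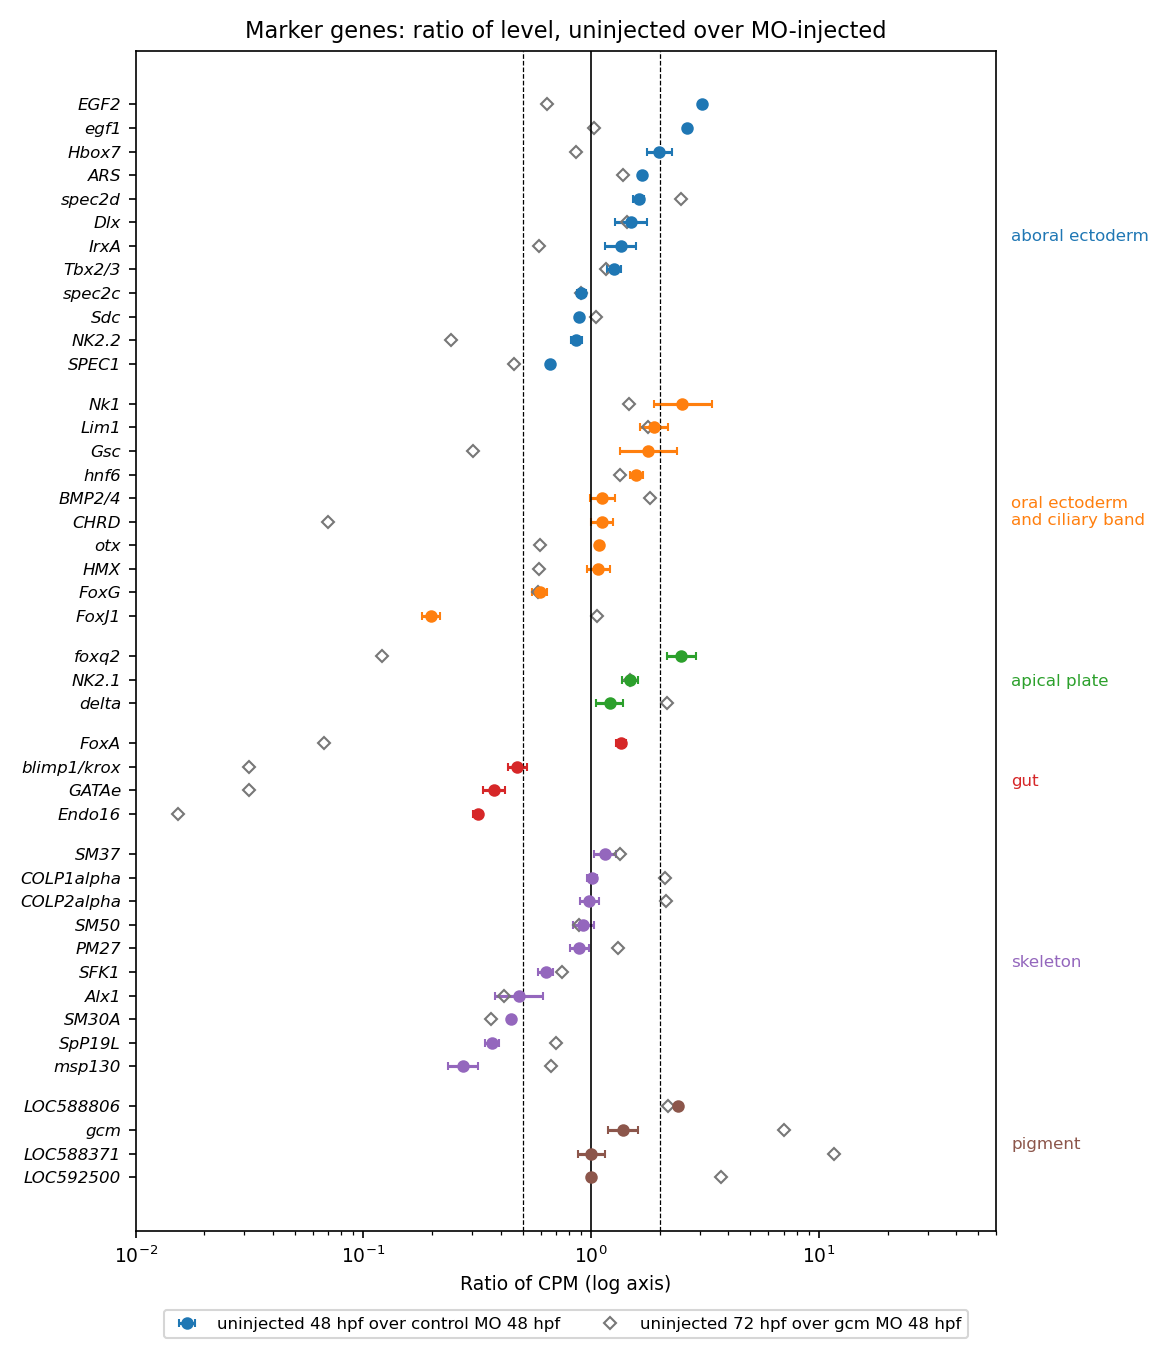
Ratio of the CPM of marker genes on a log axis, uninjected 48 hpf over control MO (filled points with 95% intervals for counting error) and uninjected 72 hpf over gcm MO (open diamonds); dashed lines mark a 2-fold difference and colours the tissue the gene marks. Endo16 (0.317), GATAe (0.376) and blimp1/krox (0.474) lie left of the lower dashed line for both pairs, whereas EGF2 (3.07) and foxq2 (2.48) lie right of the upper line for the 48 hpf pair alone.

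The genes with the lowest ratios were on none of the marker lists. All 12 carried only a LOC number, and the files give them no name. LOC574693 had 40 UMIs in the uninjected 48 hpf library, or 2.60 CPM, and 14719 in the control MO library, or 1580 CPM, a ratio of 0.00165 (0.00118 to 0.00224). It was detected in 0.484% of uninjected 48 hpf cells and 69.2% of control MO cells, and in 0.780% of uninjected 72 hpf cells and 44.5% of gcm MO cells. The gene was thus rare in both uninjected libraries and common in both injected ones.

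LOC588698 and LOC574568 had the same pattern. LOC588698 was at 2.41 CPM in the uninjected 48 hpf library and 1055 CPM in the control MO library (ratio 0.00228), and at 2.88 CPM in the uninjected 72 hpf library and 349 CPM in the gcm MO library. LOC574568 was at 4.75 CPM in the uninjected 48 hpf library and 1160 CPM in the control MO library (ratio 0.00409), and at 4.999 CPM in the uninjected 72 hpf library and 308 CPM in the gcm MO library. In all 3 genes the gcm MO level lay between those of the control MO and the uninjected libraries, and the groups of uninjected and injected libraries did not overlap. Such a separation, with the injected libraries higher, held for 2925 of the 7798 genes compared.

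Together the 3 genes summed to 9.75 CPM in the uninjected 48 hpf library and 3795 CPM in the control MO library, against 14.7 CPM in the uninjected 72 hpf library and 1149 CPM in the gcm MO library. At least 1 UMI of any of them was present in 66 of 5170 uninjected 48 hpf cells (1.28%) and 2760 of 3323 control MO cells (83.1%), and in 81 of 6666 uninjected 72 hpf cells (1.22%) and 321 of 539 gcm MO cells (59.6%). All 3 were present in 0.0774% of uninjected 48 hpf cells and 48.9% of control MO cells. Across control MO cells, which share a library and differ in depth, the CPM of the pairs of these genes had Pearson correlations of 0.62 to 0.65.

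UMIs of LOC574693 were compared between kinds of cells. Here and below, skeleton cells were chosen with markers that include COLP1alpha and COLP2alpha, so they mix spicule and collagen cells. After thinning, SM30A had a UMI in 24.6% of them in the uninjected library and 49.1% in the control MO library. The mix thus differed between the libraries. Gut cells were chosen by Endo16, GATAe and blimp1/krox, and the other cells with FoxA and lox also counted as gut markers. After thinning, at most 0.820% of the gut, pigment, skeleton or other cells of the uninjected 48 hpf library had a UMI of it. In the control MO library it had one in 47.3% of gut cells, 41.2% of pigment cells, 25% of skeleton cells and 39.3% of the others. UMIs of the gene were therefore found in control MO cells of every kind counted, and the part of free RNA in this was not tested. LOC574693, LOC588698, LOC574568 and LOC591598, which had the fourth lowest ratio (0.390 CPM in the uninjected library and 39.8 CPM in the control MO library, 0.00980), fell within a run of 9 consecutive genes in the RefSeq annotation of the assembly Spur_5.0, of which 3 were pseudogenes and 5 were in the count tables. Of the 12 lowest genes, 9 were found in that annotation. Neighbouring genes may be near-identical copies that share reads, which was not analysed here, so the levels of the single genes are uncertain.

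The next genes differed in how the other pair behaved. LOC756658 was at 5.66 CPM in the uninjected 48 hpf library and 332 CPM in the control MO library (0.0170), with 25.8 CPM in the uninjected 72 hpf library and 85.6 CPM in the gcm MO library. LOC581034 was at 16.5 CPM in the uninjected 48 hpf library and 377 CPM in the control MO library (0.0438), but at 92.0 CPM in the uninjected 72 hpf library and 51.6 CPM in the gcm MO library. LOC100892621 was at 11.1 CPM in the uninjected 48 hpf library and 216 CPM in the control MO library (0.0514), with 20.3 CPM in the uninjected 72 hpf library and 8.23 CPM in the gcm MO library. For the last of these the control MO library alone was high. The control MO library was the highest of the 4 for all 12 genes, and both MO libraries exceeded both uninjected libraries for 8 of them. The genes were chosen for low ratios, which favours a high control MO level, so these counts are a description. Over all 7798 genes compared, both MO libraries exceeded both uninjected libraries for 2925. The rest of the 12, LOC100889589, LOC100888960, LOC100891737, LOC100891397 and LOC588827, had ratios from 0.0227 to 0.0593.

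**Figure D4:**
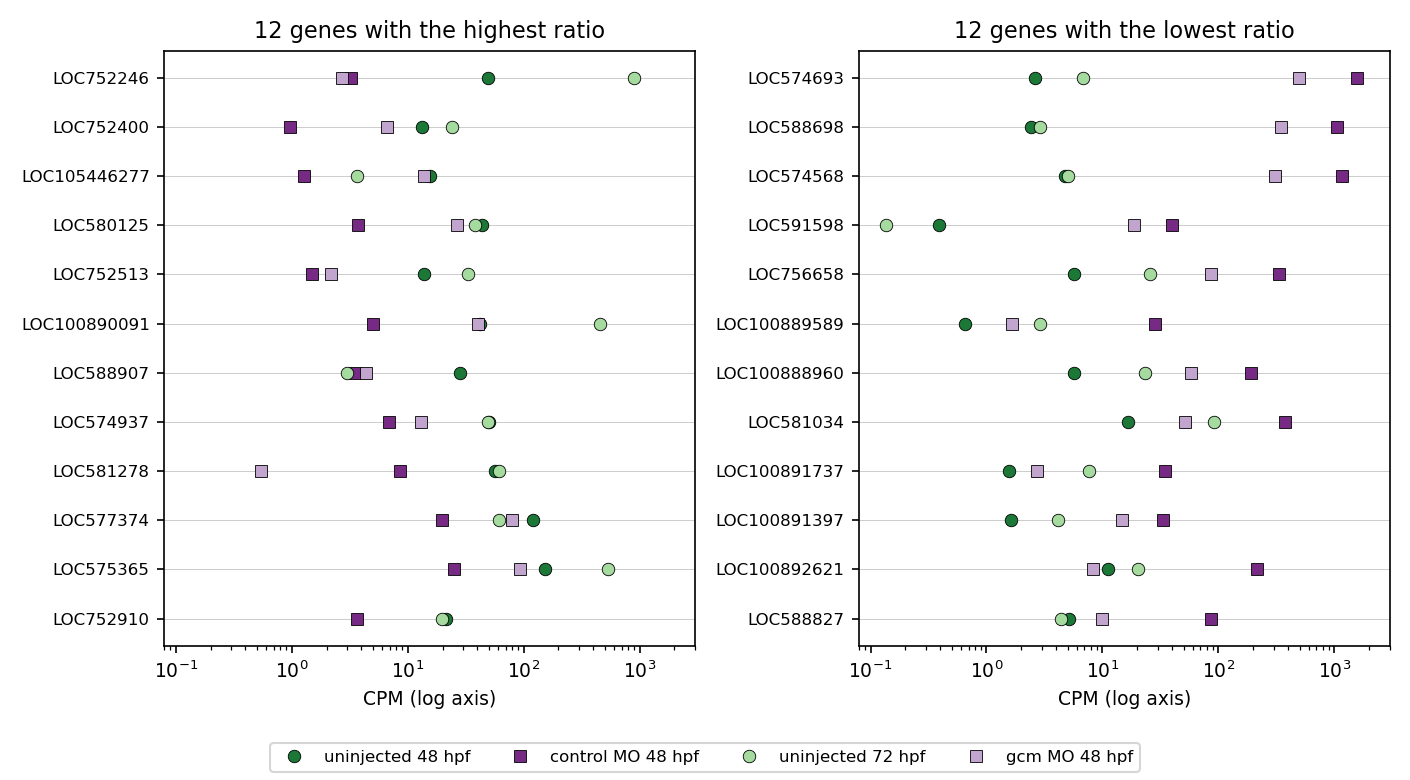
CPM on a log axis of the 12 genes with the highest (left) and the 12 with the lowest (right) ratio of uninjected 48 hpf over control MO, in each of the 4 libraries; circles are the uninjected libraries and squares the injected ones. For the lowest genes the control MO square lies farthest right in every row, and for LOC574693, LOC588698, LOC574568 and LOC591598 both squares lie far to the right of both circles.

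The 12 genes with the highest ratios, also known only by LOC numbers, were mostly expressed by few cells. LOC752246 was at 49.0 CPM in the uninjected 48 hpf library and 3.22 CPM in the control MO library, a ratio of 15.2 (10.6 to 22.7), but only 1.43% of uninjected cells and 0.481% of control MO cells had a UMI of it. Its 10 highest cells held 81.0% of its UMIs in the uninjected library, with 142 in 1 cell. It was at 888 CPM in the uninjected 72 hpf library and 2.74 CPM in the gcm MO library. LOC580125 was concentrated in the same manner, at 43.6 CPM in the uninjected 48 hpf library and 3.76 CPM in the control MO library (11.6), with 73.6% of the uninjected UMIs in 10 cells.

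Others were spread over more cells. LOC574937 was at 50.4 CPM in the uninjected 48 hpf library and 6.98 CPM in the control MO library, a ratio of 7.22 (5.602 to 9.45), and was detected in 12.01% of uninjected and 1.75% of control MO cells. LOC577374 was at 122 CPM in the uninjected library and 19.8 CPM in the control MO library (6.16), in 11.4% of uninjected and 3.91% of control MO cells. LOC588907 was at 28.2 CPM in the uninjected 48 hpf library and 3.54 CPM in the control MO library (7.97), and the other libraries resembled the control, with 3.01 CPM (uninjected 72 hpf) and 4.39 CPM (gcm MO). LOC105446277 was at 15.7 CPM in the uninjected 48 hpf library and 1.29 CPM in the control MO library (12.2), with 3.63 CPM in the uninjected 72 hpf library and 13.7 CPM in the gcm MO library. The control MO library was the lowest of the 4 for 8 of the 12 genes, and both uninjected libraries exceeded both MO libraries for 9 of them. The choice by high ratios favours a low control MO level, so these counts are a description. Over all 7798 genes compared, both uninjected libraries exceeded both MO libraries for 1391. The remaining genes, LOC752400, LOC752513, LOC100890091, LOC581278, LOC575365 and LOC752910, had ratios from 5.86 to 13.7.

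Large differences also occurred among the most abundant genes, at shares near those over all genes (8.05% higher and 10.3% lower). Of 191 genes with at least 1000 CPM in either library, 14 were 2-fold higher and 19 were 2-fold lower in the uninjected library. LOC105442653 was at 3015 CPM in the uninjected 48 hpf library and 573 CPM in the control MO library, a ratio of 5.26 (5.12 to 5.42), in 95.1% of uninjected and 66.1% of control MO cells, and it was at 3400 CPM in the uninjected 72 hpf library and 322 CPM in the gcm MO library. In the opposite direction, LOC575259 was at 608 CPM in the uninjected 48 hpf library and 4322 CPM in the control MO library, a ratio of 0.141 (0.138 to 0.144), in 63.0% of uninjected and 98.0% of control MO cells, with 330 CPM in the uninjected 72 hpf library and 1396 CPM in the gcm MO library. Each of these genes separated both uninjected from both injected libraries. Of the 7798 genes compared, 1391 had both uninjected libraries above both injected ones, and 2925 had the reverse.

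The abundant genes were chosen after their values were seen. Further ones were lower in the uninjected library. LOC590854 was at 259 CPM in the uninjected 48 hpf library and 1652 CPM in the control MO library (0.157), LOC580016 at 308 CPM (uninjected) and 1704 CPM (control MO), a ratio of 0.181, LOC586069 at 777 CPM (uninjected) and 3341 CPM (control MO), a ratio of 0.233 and LOC581972 at 354 CPM (uninjected) and 1511 CPM (control MO), a ratio of 0.234. LOC581972 was at 345 CPM in the uninjected 72 hpf library and 384 CPM in the gcm MO library, whereas LOC580016 was at 385 CPM in the uninjected 72 hpf library and 1472 CPM in the gcm MO library. In cells without gut, skeleton or pigment markers the ratios of these genes were 0.111, 0.173, 0.220 and 0.227, in the same order.

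The higher levels of EGF2 and ARS in the uninjected library were also seen in cells that carried the markers of other tissues, whereas SPEC1 had no common direction. After thinning, EGF2 had a UMI in 51.4% of gut cells in the uninjected 48 hpf library and 25.7% in the control MO library, in 58.2% (uninjected) and 19.6% (control MO) of skeleton cells, and in 63.0% (uninjected) and 20.6% (control MO) of pigment cells. Among the remaining cells the shares were 93.8% in the uninjected library and 77.7% in the control MO library. ARS had a UMI in 50.3% of pigment cells in the uninjected library and 27.8% in the control MO library, and SPEC1 in 29.6% (uninjected) and 24.2% (control MO). In gut cells SPEC1 had a UMI in 17.6% of uninjected and 19.8% of control MO cells, and in the remaining cells in 58.2% of uninjected and 66.3% of control MO cells. In collagen cells EGF2 was at 4376 CPM in the uninjected library and 353 CPM in the control MO library. EGF2 transcripts were thus found in more of the gut, skeleton and pigment cells of the ectoderm-enriched library, and the part of free RNA in this was not tested.

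**Figure D5:**
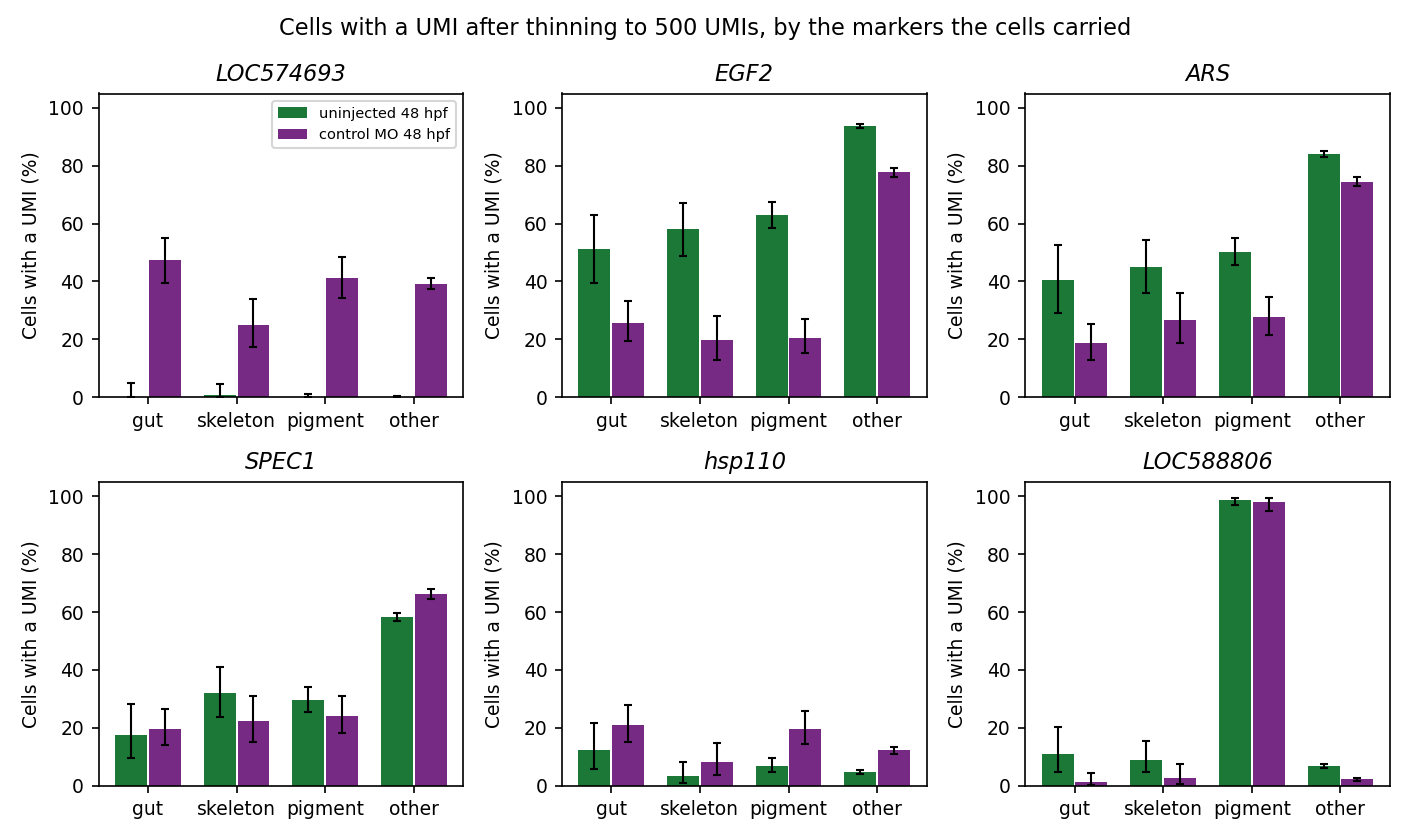
Share of cells, in percent, with a UMI of each gene after thinning to 500 UMIs, for cells that carried gut, skeleton or pigment markers and for the other cells, in the uninjected 48 hpf (green) and control MO (purple) libraries, with exact binomial 95% intervals. LOC574693 is found in 25% to 47.3% of every kind of control MO cell, and EGF2 in a larger share of every kind of uninjected cell.

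Among the chaperone and metallothionein genes, 1 of 5 was 2-fold lower, beside 10.3% over all genes. hsp110, a chaperone of the heat shock protein family, was at 108 CPM in the uninjected 48 hpf library and 317 CPM in the control MO library, a ratio of 0.341 (0.321 to 0.362), with 73.1 CPM in the uninjected 72 hpf library and 303 CPM in the gcm MO library. It was detected in 22.2% of uninjected 48 hpf cells and 47.5% of control MO cells, and its ratio was 0.408 in pigment cells, 0.412 in gut cells, 0.425 in skeleton cells and 0.338 in the others. The metallothionein gene MTa, the most abundant of the listed genes, was at 26748 CPM in the uninjected 48 hpf library and 31846 CPM in the control MO library (0.840), and MTB1 at 781 CPM (uninjected) and 452 CPM (control MO), a ratio of 1.73.

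Ribosomal protein genes were nearly level, with ratios of 1.11 for rpl36, 1.03 for rps14 and 1.01 for rps15a. Of 10 measured translation genes, eif4a, the helicase of translation initiation, was lower at 85.9 CPM in the uninjected 48 hpf library and 191 CPM in the control MO library (0.450), and eef1Bb, an elongation factor subunit, was higher at 27.0 CPM (uninjected) and 11.6 CPM (control MO), a ratio of 2.33. Over all genes, 10.3% were 2-fold lower and 8.05% higher. The histone variant gene H2A.F/Z was at 2218 CPM in the uninjected library and 4098 CPM in the control MO library (0.541), and the chromatin protein gene HMG1 had a ratio of 0.599. None of 4 measured histone and chromatin genes passed 2-fold, although their median log2 ratio was -0.65.

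The cell cycle genes, a list the study had chosen on these samples, differed little. Of 25 measured genes, 2 were 2-fold higher and 1 was lower, with a median log2 ratio of 0.15. LOC584095, annotated in the study's tables as DNA polymerase alpha, was at 58.2 CPM in the uninjected 48 hpf library and 26.5 CPM in the control MO library (2.19), and LOC584331, a tubulin alpha gene, at 25.3 CPM (uninjected) and 6.98 CPM (control MO), a ratio of 3.62. In cells without gut, skeleton or pigment markers, LOC584331 was at 5.68 CPM (uninjected) and 2.70 CPM (control MO). Its ratio there was 2.11 (1.29 to 3.59). LOC578080, a rac GTPase-activating protein, was at 50.7 CPM in the uninjected library and 101 CPM in the control MO library (0.500), on the threshold. CycA, the cyclin of DNA replication and mitotic entry, had a ratio of 1.27. Beside the 8.05% higher and 10.3% lower over all genes, these counts were near the background.

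No gene passed 2-fold among 12 for calcium handling and secretion or among 13 for signalling. Over all genes, 8.05% were 2-fold higher and 10.3% lower, so few calls would be found in lists this short. The plasma membrane calcium pump gene PMCA had a ratio of 1.69 and the chaperone calreticulin, calret, 0.628. The ligand gene wnt1 was at 0.541 and Tcf/Lef, the nuclear effector of Wnt signalling, at 0.556. None of 6 immune genes reached 200 UMIs.

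Of the 161 measured genes with a symbol other than a LOC number, 9 were 2-fold higher and 17 lower, shares near the 8.05% and 10.3% over all genes, and those not on a list were chosen after their values were seen. REJ9, of the receptor for egg jelly family, was at 47.2 CPM in the uninjected 48 hpf library and 9.13 CPM in the control MO library (5.17), with 160 CPM in the uninjected 72 hpf library and 9.88 CPM in the gcm MO library. NBC, a sodium bicarbonate cotransporter, was at 112 CPM in the uninjected 48 hpf library and 37.8 CPM in the control MO library (2.97), with 228 CPM in the uninjected 72 hpf library and 53.8 CPM in the gcm MO library. Both uninjected libraries exceeded both injected libraries for REJ9 and NBC, as for 1391 of the 7798 genes compared. SpRunt-1, a runt domain factor, was at 48.3 CPM in the uninjected 48 hpf library and 103 CPM in the control MO library, a ratio of 0.470. It was at 53.2 CPM in the uninjected 72 hpf library and 77.9 CPM in the gcm MO library.

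The uninjected 72 hpf and gcm MO libraries share the contrast of preparation and injection but no sample with the main pair. Between them, 9.49% of the 7798 genes were at least 2-fold higher and 26.1% at least 2-fold lower in the uninjected library. Of the 807 genes lower at 48 hpf, 513 (63.6%) were also 2-fold lower in that pair and 24 were 2-fold higher. Of the 628 genes higher at 48 hpf, 222 (35.4%) were also 2-fold higher and 48 were 2-fold lower. Both injected libraries lay at least 2-fold above both uninjected ones for 323 of the 807 lower genes, while the control MO library alone lay 2-fold above the other 3 for 153. Among the 628 higher genes, 113 had both uninjected libraries at least 2-fold above both injected ones, and 150 had the control MO library alone 2-fold below the other 3. Only 34 of the higher and 28 of the lower genes set the uninjected 48 hpf library 2-fold apart from the other 3. Stage and gcm differ within the second pair, so these counts are a description.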

How the data were processed

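Cells of S. purpuratus were captured with droplet 3' chemistry, 1 library per group. The authors produced gene by barcode matrices with Cell Ranger (the file header gives software version 3.1.0) using a custom reference of the genome build Spur_4.2; the labels name Seurat 3.1.4 for later steps. The deposited values are raw UMI counts of called cells, not filtered on genes; rows with the same symbol were summed (32262 features, 31264 symbols). Multi-mapped reads between near-identical genes could not be examined.

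Here, cells with 400 to 2500 genes were kept, UMIs were summed per library and divided by the library total (CPM), with Python 3.11.15, NumPy 2.4.6, SciPy 1.17.1 and pandas 2.3.3. Genes with at least 200 UMIs over both 48 hpf libraries were compared, and a 2-fold ratio was the rule of size. With 1 library per group no test was made and no p-value is given. Intervals are exact Poisson (CPM), Clopper-Pearson (shares) and conditional binomial (ratios), at 95%. PCR and capture effects are not covered. For shares of marker-carrying cells, each cell was thinned once to 500 UMIs, which left out no cell, and at least 3 marker UMIs were required. Named genes are the 12 highest and 12 lowest ratios and the members of 16 gene lists, of which 158 of 198 names matched a symbol; the other 40 were not analysed here. Abundant genes and genes with a symbol that fall outside that rule were chosen after their values were seen. The members and lists were chosen with earlier results of these data known.

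Doublets were not removed from the values given. Scrublet in scanpy 1.11.5 marked 2 of 5170 uninjected cells (0.0387%), a share at which the caller had not worked, and 36 of 3323 control MO cells (1.08%). Alternatives covered the filters on cells and genes, TMM factors (edgeR 4.0.16, R 4.3.3, for scaling alone), scaling per cell, thinning and marker thresholds. The scripts were tested on simulated data. Neighbouring genes were read from the row order of the RefSeq table of Spur_5.0, and no coordinates are given because the assemblies differ. Values of some listed genes are not reported here.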

Additional observations from a re-analysis of the deposited data

How the results depend on the processing

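No paired analysis was possible because each group is 1 library. None of the named genes past 2-fold turned direction, and all 24 genes of the highest and lowest ratios stayed past 2-fold under all 11 settings for levels, the one reported included. The counts of higher and lower genes were 1903 and 1583 with a minimum of 20 UMIs, and 177 and 334 with a minimum of 1000 UMIs, because other numbers of genes were compared; the other 10 alternatives of 12 stayed within 1.5 times of 628 and 807. Which direction had more genes turned with the scaling: there were 842 higher and 753 lower with each cell scaled to its own total, 939 and 834 with cells thinned, and 730 and 718 without the 20 most abundant genes. For levels, 27 of 44 alternatives moved a list's ratio beyond its counting interval. The aboral ratio (1.19) was 1.17 with all deposited cells, 1.18 without the upper gene limit, 1.12 without skeleton and gut cells, 1.2 with TMM factors, 1.01 with each cell scaled to its own total, 1.02 with cells thinned and 1.24 without the 20 most abundant genes. The oral and ciliary ratio (0.956) was 0.902 without skeleton and gut cells, 1.02 scaled per cell, 1.07 thinned and 0.997 without the 20 most abundant genes, and so had no firm side of 1. The gut ratio (0.576) was 0.612 with all cells, 0.613 without the upper limit, 0.616 scaled per cell, 0.605 thinned, 0.601 without the 20 genes and 0.341 without FoxA and lox. The skeleton ratio (0.591) was 0.639 scaled per cell, 0.644 thinned and 0.616 without the 20 genes. The pigment ratio (1.49) was 1.4 with all cells, 1.41 without the upper limit, 1.54 without Scrublet doublets, 1.39 without skeleton and gut cells, 1.56 scaled per cell, 1.53 thinned and 1.55 without the 20 genes. For shares of cells, 10 of 43 alternatives moved. The oral and ciliary ratio of shares (1.19) was 0.881 without thinning and 0.951 with thinning to 1000 UMIs, which left out 959 uninjected and 134 control MO cells. The gut ratio of shares (0.456) was 0.606 at 2 UMIs, 0.331 at 5 UMIs, 0.787 without thinning, 0.683 thinned to 1000 and 0.281 without FoxA and lox. The skeleton ratio of shares (0.7) was 0.303 for spicule matrix genes and 1.18 for collagen genes, and the pigment one (1.48) was 1.79 without thinning. The cause of these shifts was not tested. blimp1/krox, Alx1, SpP19L, GATAc, LOC578080, COLP4alpha and eef1Bb were not past 2-fold in every setting. The settings without FoxA and lox, for spicule matrix or collagen genes, and with skeleton, gut and pigment cells left out (637 higher and 756 lower genes) were chosen after seeing the data. Leaving out skeleton and gut cells gives no value for those lists. Single libraries limit every comparison, since the spread between batches of embryos or captures is unknown.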
